A study of Mus musculus with 19 samples.

Results

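Cell division in the microglia cultures was read from 45 genes, out of the 16941 genes in each of 19 count tables. The members were chosen by symbol: 14 act in DNA replication and entry into S phase (the G1/S members) and 31 in chromosome condensation, mitosis and cytokinesis (the G2/M members). All 45 were present in the tables and all passed the filter on low counts, which kept 14113 genes. The study asked how an amyloid precursor protein transgene and inflammation act on adult microglia, the brain's own macrophages. Cortical cells of 10- to 11-month-old C57BL/6 mice were kept for 4 weeks in medium with 10% serum and macrophage colony-stimulating factor (M-CSF, a macrophage growth factor) at 5 ng/mL. Mice were wild type (WT) or carried hAPPJ20 (PDGFAPPSw,Ind), a human transgene with familial Alzheimer mutations behind the PDGF promoter, which drives it mainly in neurons (APP). Cultures received medium alone as vehicle, or lipopolysaccharide (LPS, a bacterial cell wall component) at 100 ng/mL for 6 h, and then fresh medium for 16 h. The groups held 4 libraries of WT with vehicle, 5 of WT with LPS, 5 of APP with vehicle and 5 of APP with LPS. Which of them shared an animal or culture is not stated, so the tests measure the spread from library to library, and part of it may be technical.

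A dividing cell passes through G1, copies its DNA in S phase and separates the copies in mitosis. Cyclin E and E2F factors open S phase, the MCM helicase unwinds the DNA, and the PCNA clamp holds the polymerases on it. Cyclins A and B with CDK1 then drive mitosis, in which Aurora and Polo-like kinases, kinetochore proteins and motor proteins build the spindle, and ubiquitin ligases end the process by destroying the cyclins. Most genes of the second wave are repressed in resting cells through a promoter element called CHR and activated through CCAAT boxes, and many of the first wave carry E2F elements. M-CSF is a growth signal for macrophages, and microglia divide in the adult brain at a low rate.

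The promoters are shown because the members were grouped by these 2 waves, and the CHR letters were far more frequent in the mitotic wave. RefSeq sequences of GRCm38.p6, 250 bases before to 50 bases after the transcription start, were matched for 37 of the 45 members (12 G1/S and 25 G2/M). Ccne2, Mcm4, Ccna2, Aurkb, Smc4, Tpx2, Stmn1 and Kif20a had no entry. On both strands, TTTGAA (the CHR core) was present in 20 of 25 G2/M promoters and 1 of 12 G1/S promoters, against 17.9% of 32851 promoters of that length. CCAAT was present in 23 of 25 and 8 of 12, against 37.4%. Both were present together in 20 of 25 and 1 of 12, against 6.95%. Any of the E2F forms TTTGGCGC, TTTCGCGC and TTTCCCGC was present in 1 of 25 G2/M and 4 of 12 G1/S promoters, against 1.84%. A match is a description of the letters and not a measured binding site. In the sequences printed here 5′ to 3′, all on the minus strand of the genome, capitals mark every match to these 5 motifs on either strand. Top2a (chr11:99024140-99024439), Cdk1 (chr10:69352863-69353162) and Mki67 (chr7:135716330-135716629) hold both TTTGAA and CCAAT, as most G2/M promoters do. Mcm6 (chr1:128359656-128359955) and Mcm7 (chr5:138171834-138172133) are shown for their E2F forms: the 4 G1/S promoters with one are those of Mcm3, Mcm5, Mcm6 and Mcm7, and the other 8 have none. A gene with more than 1 start was counted by the entry listed first, and the other Mcm7 start (chr5:138171217-138171516) holds no E2F form. In Mcm6 a TTTGGCGC overlaps the reverse complement of TTTCGCGC, and in Mcm7 TTTCGCGC overlaps CCAAT, so each of these is printed as 1 capital run.
Top2a: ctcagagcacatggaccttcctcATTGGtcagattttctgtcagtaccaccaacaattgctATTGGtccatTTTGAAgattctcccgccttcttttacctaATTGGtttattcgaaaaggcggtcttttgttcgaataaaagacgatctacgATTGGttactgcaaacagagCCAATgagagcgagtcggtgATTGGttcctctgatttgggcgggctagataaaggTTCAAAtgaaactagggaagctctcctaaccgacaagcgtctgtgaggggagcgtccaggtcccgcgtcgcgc
Cdk1: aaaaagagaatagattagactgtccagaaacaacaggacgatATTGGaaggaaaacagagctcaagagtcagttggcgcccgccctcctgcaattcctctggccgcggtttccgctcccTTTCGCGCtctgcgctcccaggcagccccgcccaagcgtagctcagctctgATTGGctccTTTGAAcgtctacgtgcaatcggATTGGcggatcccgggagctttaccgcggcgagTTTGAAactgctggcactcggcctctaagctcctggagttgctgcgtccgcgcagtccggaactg
Mki67: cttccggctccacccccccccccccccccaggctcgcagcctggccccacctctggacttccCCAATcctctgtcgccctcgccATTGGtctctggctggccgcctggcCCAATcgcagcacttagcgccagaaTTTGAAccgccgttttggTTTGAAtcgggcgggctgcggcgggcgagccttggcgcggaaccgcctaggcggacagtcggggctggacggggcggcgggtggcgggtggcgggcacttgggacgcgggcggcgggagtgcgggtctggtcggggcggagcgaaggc
Mcm6: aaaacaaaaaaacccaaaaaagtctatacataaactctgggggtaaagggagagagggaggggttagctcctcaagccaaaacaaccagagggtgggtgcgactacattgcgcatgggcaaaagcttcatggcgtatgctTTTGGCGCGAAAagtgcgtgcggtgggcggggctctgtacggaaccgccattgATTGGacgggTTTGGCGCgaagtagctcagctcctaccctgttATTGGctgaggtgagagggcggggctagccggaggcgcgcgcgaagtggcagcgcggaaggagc
Mcm7: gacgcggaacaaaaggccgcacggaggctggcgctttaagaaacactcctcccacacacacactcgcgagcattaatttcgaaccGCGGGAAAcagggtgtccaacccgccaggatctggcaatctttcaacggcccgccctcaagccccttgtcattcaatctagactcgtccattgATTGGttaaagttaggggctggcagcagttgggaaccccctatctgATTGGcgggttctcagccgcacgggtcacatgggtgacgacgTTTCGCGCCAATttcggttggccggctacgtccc

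Library totals ran from 13065257 to 31248988 counts (median 21918747), and levels are given in CPM, counts relative to a library total that was scaled by edgeR's TMM factors. A count of 0 in a library allows up to 3 counts, which is 0.0963 to 0.249 CPM, and this floor covers counting error only. The members varied widely between libraries. In 28 of 45 members (62.2%) 1 of the 19 libraries had at most 3 counts and another, of any group, at least 100. Over all tested genes this share was 34.6%. Per library, between 0 and 14 members were at 0: WT LPS replicate 1 had 14, while the first APP vehicle library and file numbers 59 and 60 had 0. File numbers 57 and 58 (the last vehicle and LPS replicates of WT, numbered 4 and 5) and 59 and 60 (replicate 5 of both APP groups) stood apart in their cell type markers. Their 19 measured microglia and macrophage markers summed to 8869, 7230, 5965 and 4361 CPM, against 13914 to 24489 CPM in the other 15. Of the defining microglial markers, P2ry12 was at 0, 0.797, 0 and 2.58 CPM in file numbers 57 to 60 and 0 to 28.6 CPM in the other 15. Tmem119 was at 5.85, 5.73, 7.64 and 5.52 CPM in these 4, within the 0 to 17.2 CPM of the other 15. With vehicle, file numbers 57 and 59 were also higher in the sum of 8 inflammatory genes, at 2180 and 1933 CPM. The other vehicle libraries summed to 395 to 1065 CPM in WT and 454 to 1147 CPM in APP. After LPS, file numbers 58 and 60 summed to 5104 and 3893 CPM. The other LPS libraries summed to 2337 to 2743 CPM in WT and 2534 to 5233 CPM in APP. Fibroblast and pericyte markers summed to at least 26999 CPM in every library, above the microglia and macrophage sum in each. The main comparisons of the members are therefore given with and without these 4. Other tests of the members, and tests of other gene lists, use all 19 libraries unless stated. In bulk RNA, fewer cells of a type and less RNA per cell cannot be told apart.

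The summed level of the 45 members was similar in most libraries and high in a single pair. The WT vehicle libraries summed to 711, 915, 725 and 751 CPM, in order of replicate number as in all value lists here, and the WT LPS libraries to 529, 637, 794, 720 and 767 CPM. The APP vehicle libraries summed to 760, 646, 732, 609 and 1698 CPM, and the APP LPS libraries to 906, 557, 645, 610 and 1953 CPM. APP vehicle replicate 5 and APP LPS replicate 5 thus lay above the other 17 libraries, which ranged from 529 to 915 CPM, by 2.36-fold and 2.71-fold over their median of 720 CPM. The WT libraries of file numbers 57 and 58, at 751 and 767 CPM, lay inside that range although their macrophage markers were low as well. As group means the sums were 775 ± 94.6 (SD, n = 4) CPM in WT vehicle, 689 ± 108 (SD, n = 5) in WT LPS, 889 ± 457 (SD, n = 5) in APP vehicle and 934 ± 585 (SD, n = 5) in APP LPS. Without file numbers 57 to 60 they were 784 ± 114 (SD, n = 3), 670 ± 114 (SD, n = 4), 687 ± 70.8 (SD, n = 4) and 680 ± 155 (SD, n = 4) CPM, with overlapping ranges in all 4 groups.

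**Figure D1:**
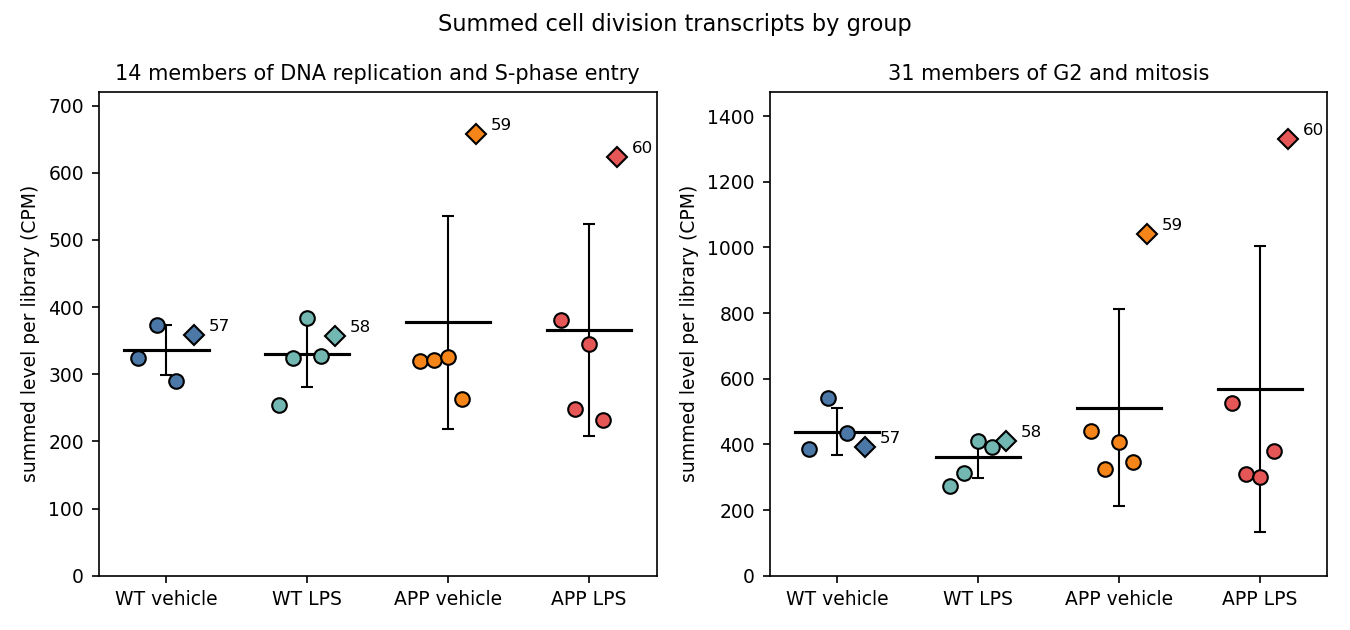
Summed level in CPM (y axis) of the 14 G1/S members (left) and the 31 G2/M members (right) in each library, by group (x axis); diamonds are the libraries with file numbers 57 to 60, horizontal lines are group means and bars are 1 SD. APP vehicle replicate 5 (59) and APP LPS replicate 5 (60) lie above all other libraries in both panels, at 657 and 623 CPM for G1/S and 1041 and 1330 CPM for G2/M, while 57 and 58 lie among the rest.

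Both waves were higher in summed CPM in the APP replicate 5 pair, the mitotic one by the larger factor. The G1/S members summed to 657 and 623 CPM there, 2.02-fold and 1.92-fold the median of the other 17 libraries (range 232 to 384 CPM). The G2/M members summed to 1041 and 1330 CPM, 2.66-fold and 3.39-fold that median (range 275 to 542 CPM). Such sums weigh abundant members most. Pcna had a median of 129 CPM in the other 17 libraries, where the G1/S sum had a median of 325 CPM. As a pair mean Pcna was only 1.23-fold its median, which lowers the G1/S factor. For 35 of 45 members (9 of 14 G1/S and 26 of 31 G2/M) the highest of the 19 libraries was 1 of this pair: APP LPS replicate 5 for 25 and APP vehicle replicate 5 for 10. Over all tested genes the share was 11%. For 19 members, 4 G1/S and 15 G2/M, both libraries of the pair were above all other 17, against 3.2% of tested genes. No member had its highest level in file number 57 or 58, against 8.26% of tested genes. The pair was singled out after its values were seen, so these shares are a description of these libraries. The 10 members that peaked elsewhere were Ccne2, E2f1, Mcm6, Rrm1, Tk1, Cenpa, Cenpf, Ube2c, Cdca3 and Kif20a, and these peaks were spread over 8 libraries.

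**Figure D2:**
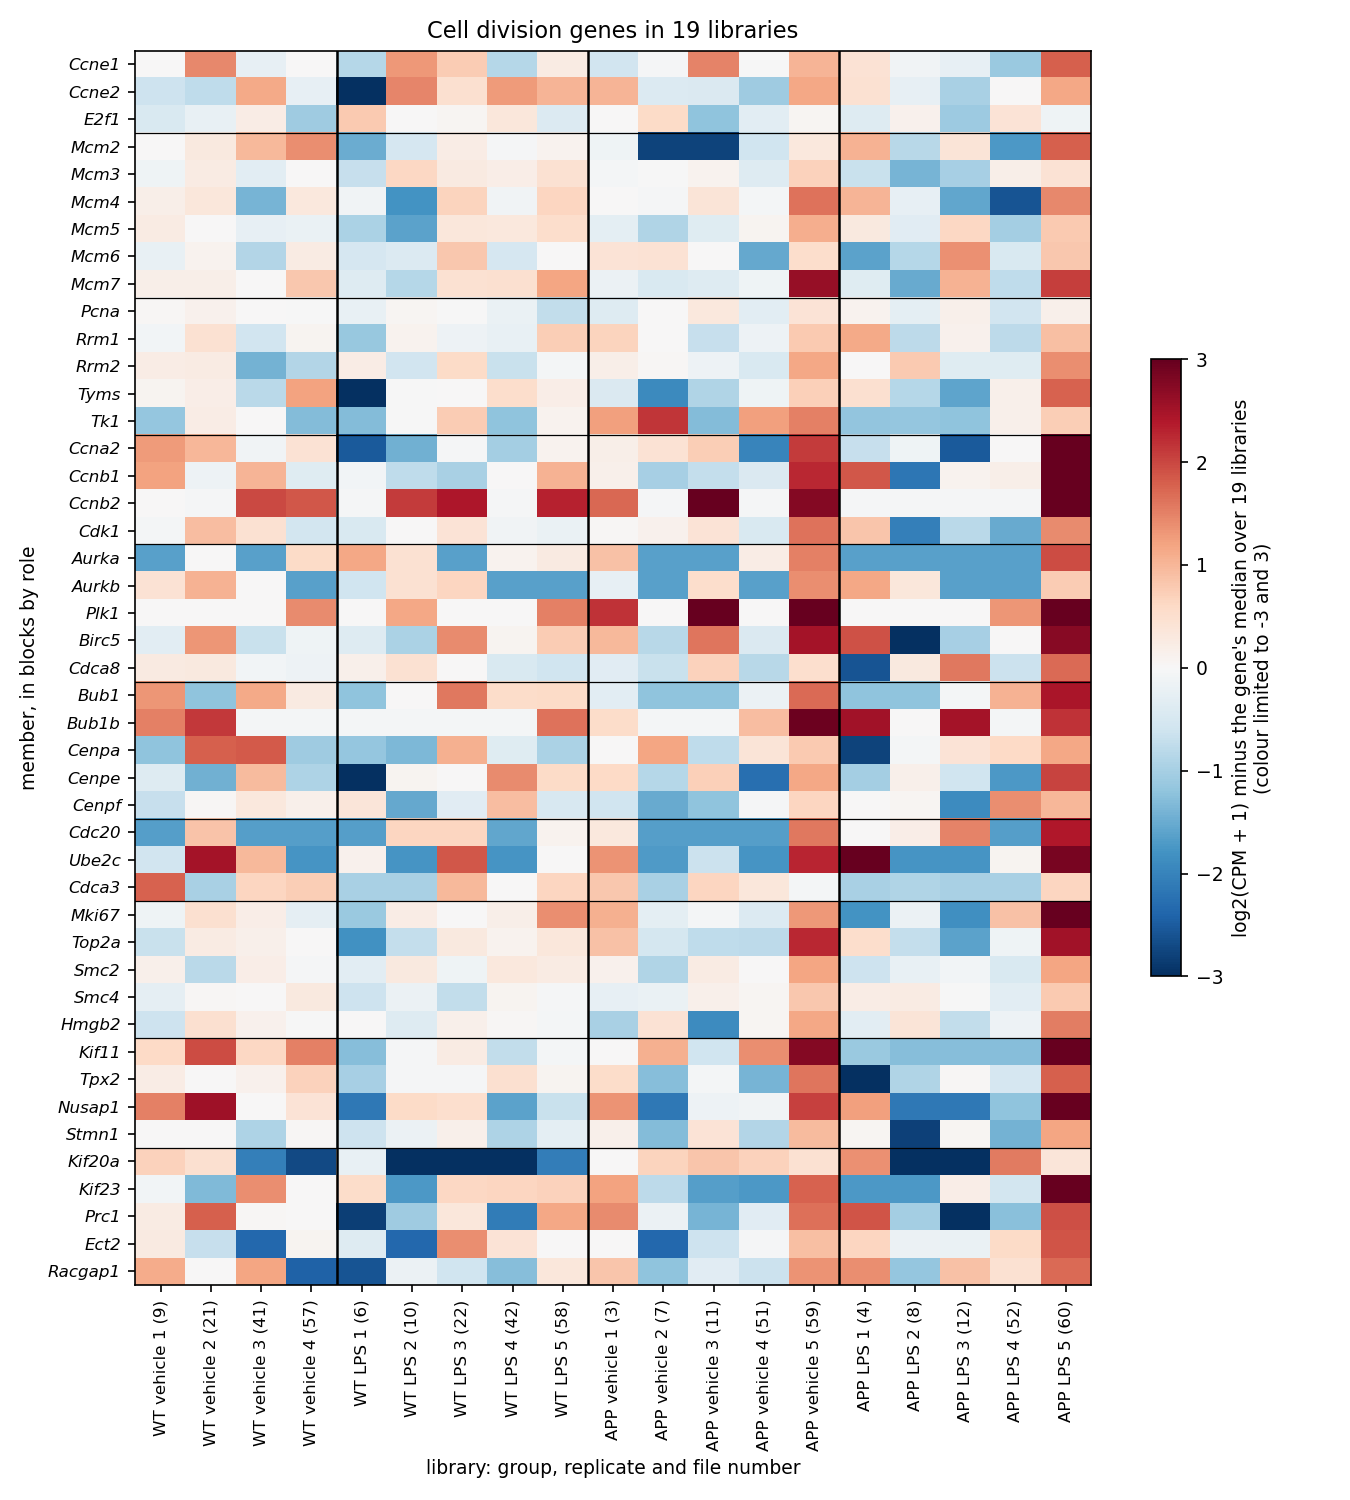
Level of each of the 45 members (y axis, in blocks by role) in each of the 19 libraries (x axis: group, replicate and file number), as log2(CPM + 1) minus the gene's median over the libraries, with the colour limited to -3 and 3. The columns of APP vehicle replicate 5 (59) and APP LPS replicate 5 (60) are mostly red, and 35 of the 45 members have their highest level in 1 of them.

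Among the genes of S-phase entry, E2f1, the transcription factor that switches on replication genes, did not share this pattern. E2f1 levels were 16.4, 19.4, 27 and 10.3 CPM in WT vehicle, 40.2, 23.2, 24, 29.5 and 17 CPM in WT LPS, 22.9, 34.6, 9.37, 18.2 and 23.9 CPM in APP vehicle and 17.2, 25.3, 10.2, 30.8 and 21 CPM in APP LPS libraries. The groups overlapped, and the APP replicate 5 pair ranked 8 and 11 of 19. Ccne2, a cyclin E that activates CDK2, ranged from 0 to 21.1 CPM with its highest level in WT LPS replicate 2. Ccne1, its paralogue, ranged from 2.08 to 22.1 CPM and was highest in APP LPS replicate 5. The 3 genes summed to 53.3 and 59.9 CPM in the pair and 17.9 to 59.9 CPM elsewhere, so the onset genes gave little separation.

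The replicative helicase separated the pair more clearly. Mcm7 is 1 of the 6 subunits of the MCM2-7 ring that unwinds DNA at the replication fork. Mcm7 stood at 28.7, 28.7, 25.1 and 44.7 CPM with vehicle and 18.9, 13.5, 34.8, 35.2 and 58.1 CPM with LPS in WT, and at 22.2, 18, 18.9, 23.1 and 159 CPM with vehicle and 19.2, 8.12, 52.9, 14.5 and 109 CPM with LPS in APP. Both libraries of the pair were high, at 5.81-fold the median of the other 17 as a pair mean, and WT LPS replicate 5 and APP LPS replicate 3 were next. Mcm4, of the same ring, stood at 63.9 and 56.4 CPM in the pair and 2.49 to 41.7 CPM elsewhere. Mcm2, another subunit, had the smallest p-value of the members for APP against WT with vehicle and for the interaction. Mcm2 levels were 5.84, 7.35, 12.5 and 16.9 CPM in WT vehicle, 1.44, 3.86, 6.94, 5.69 and 6.37 CPM in WT LPS, 5.23, 0, 0, 3.56 and 7.49 CPM in APP vehicle and 13.1, 2.86, 8.02, 1.08 and 22.8 CPM in APP LPS libraries. It was at 0 in APP vehicle replicates 2 and 3 and highest in APP LPS replicate 5, and all 4 groups overlapped. Mcm3 ranged from 7.74 to 36.4 CPM, Mcm5 from 2.50 to 21.7 CPM and Mcm6 from 4.43 to 41.9 CPM. Summed over the 6 subunits, the pair held 311 and 264 CPM against 51.1 to 157 CPM in the other libraries.

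The clamp and the nucleotide enzymes separated the pair less than the helicase did. Pcna encodes the sliding clamp, which also serves DNA repair. Pcna stood at 133, 141, 130 and 128 CPM with vehicle and 111, 136, 129, 113 and 77.4 CPM with LPS in WT, and at 99.4, 131, 162, 103 and 172 CPM with vehicle and 140, 105, 144, 86.6 and 144 CPM with LPS in APP. The groups overlapped, and the pair mean was 1.23-fold the median of the other 17, with APP vehicle replicate 3 at nearly the level of APP vehicle replicate 5. Rrm1, the large subunit of ribonucleotide reductase, was at 49.4 and 54.4 CPM in the pair and highest in APP LPS replicate 1, at 63.9 CPM. Rrm2, its cell-cycle-regulated small subunit, was at 40.9 and 48.4 CPM in the pair and 5.99 to 31.2 CPM elsewhere. Tyms, thymidylate synthase, reached 50 CPM in APP LPS replicate 5. Tk1, thymidine kinase, stayed at or below 9.94 CPM in every library.

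Cyclins A2 and B1 and the kinase Cdk1 also separated the pair. Cdk1 is the kinase that triggers mitosis. Cdk1 levels were 23.2, 47, 33.7 and 16 CPM in WT vehicle, 17.2, 24.1, 32.2, 22.3 and 20.7 CPM in WT LPS, 24.8, 26.6, 32.5, 17.4 and 77.1 CPM in APP vehicle and 43.6, 5.02, 13.4, 7.73 and 66 CPM in APP LPS libraries. The pair was above the other 17 libraries, at 3.08-fold their median, and WT vehicle replicate 2 and APP LPS replicate 1 followed. Ccna2, cyclin A2, stood at 23.6 and 48.3 CPM in the pair and 0 to 13 CPM elsewhere. Ccnb1, cyclin B1, stood at 21.3 and 47.2 CPM against 0.0469 to 16.1 CPM, while Ccnb2, cyclin B2, at 5.98 and 12.4 CPM against 0 to 9.37 CPM, did not separate the pair. In the kinase and chromosomal passenger group, Birc5 (survivin, a passenger subunit) was at 51.6 and 61.2 CPM in the pair against 0.0938 to 34.0 CPM. Cdca8 (borealin, its partner) was at 7.60 and 18.5 CPM against 0 to 16.9 CPM. The Aurora kinases Aurka and Aurkb and the Polo-like kinase Plk1 did not exceed 10.9, 7.20 and 10.5 CPM in any library.

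Kinetochore genes, which attach chromosomes to the spindle and hold mitosis until they are attached, separated the pair only in part. Cenpf, a large kinetochore protein, had the smallest p-value for LPS in APP. Cenpf stood at 12.9, 22.3, 27.4 and 24.1 CPM with vehicle and 28.1, 6.77, 16.9, 42.2 and 15.2 CPM with LPS in WT, and at 13.9, 6.95, 8.77, 21 and 34.3 CPM with vehicle and 21.7, 22.8, 5.16, 58.4 and 44.4 CPM with LPS in APP. Its highest level was in APP LPS replicate 4, and the pair ranked 4 and 2. Cenpe, a kinetochore motor, was at 18.1 and 33.8 CPM in the pair and 0 to 21.8 CPM elsewhere. Cenpa, the centromeric histone, reached 23.6 CPM in WT vehicle replicate 3, and the checkpoint kinases Bub1 and Bub1b stayed at or below 11.6 and 7.05 CPM. Among the ubiquitin genes that end mitosis, Ube2c (the conjugating enzyme of the anaphase-promoting complex) was highest in APP LPS replicate 1 (28.5 CPM) with 6 libraries at 0, and Cdc20, an activator of that complex, was at 8.38 and 15.6 CPM in the pair and 0 to 7.78 CPM elsewhere. Cdca3 did not exceed 5.75 CPM.

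Chromosome structure genes were higher in the pair as a sum. Top2a is topoisomerase II alpha, which untangles DNA before the chromosomes part. Top2a levels were 16.9, 32.7, 30.6 and 27.2 CPM in WT vehicle, 7.05, 16.3, 33.6, 29.4 and 34.9 CPM in WT LPS, 50.7, 18.6, 15.6, 15.3 and 135 CPM in APP vehicle and 39.4, 16.3, 8.26, 24.8 and 162 CPM in APP LPS libraries. The pair was above all other libraries, at 6.00-fold their median, and APP vehicle replicate 1 was next. Smc4, a condensin subunit, had the smallest p-value for APP against WT after LPS. Smc4 stood at 77, 95.5, 92.9 and 114 CPM with vehicle and 59.6, 81.7, 55.3, 99.2 and 91.4 CPM with LPS in WT, and at 78.5, 80.3, 104, 96.8 and 164 CPM with vehicle and 108, 110, 92.2, 74.5 and 160 CPM with LPS in APP. The WT LPS libraries reached 99.2 CPM at most, 3 of 5 APP LPS libraries were above that and APP LPS replicates 3 and 4 were within the WT range. Its condensin partner Smc2 stood at 77.5 and 77.1 CPM in the pair and 17.5 to 41.8 CPM in the other 17. Hmgb2, a chromatin protein of dividing cells, stood at 133 and 172 CPM against 15.1 to 82.1 CPM. Mki67, the proliferation antigen Ki-67, is outside the naming rule and was picked after its values were seen. Mki67 levels were 2.28, 4.02, 3.16 and 1.98 CPM in WT vehicle, 0.671, 3.16, 2.59, 3.04 and 8.5 CPM in WT LPS, 6.5, 1.95, 2.46, 1.72 and 7.86 CPM in APP vehicle and 0.0411, 2.16, 0, 5.57 and 37.7 CPM in APP LPS libraries. Only APP LPS replicate 5 stood out for Mki67, since APP vehicle replicate 5 was below WT LPS replicate 5. The 5 genes summed to 517 and 610 CPM in the pair and 153 to 235 CPM elsewhere.

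Of the spindle genes, Kif11 is the motor that pushes the spindle poles apart. Kif11 stood at 2.63, 8.32, 2.74 and 5.85 CPM with vehicle and 0, 1.35, 1.88, 0.452 and 1.33 CPM with LPS in WT, and at 1.42, 4.09, 0.601, 5.39 and 15.4 CPM with vehicle and 0.123, 0, 0, 0 and 19.8 CPM with LPS in APP. In WT every LPS library was below every vehicle library, and in APP this held for replicates 1 to 4 but not for APP LPS replicate 5, which had the highest level of all libraries. Tpx2, which activates Aurora A on the spindle, was at 26.2 and 29.8 CPM in the pair and 0 to 13.4 CPM elsewhere. Stmn1, a tubulin-binding protein that several resting cell types also make, was at 71.4 and 84.4 CPM against 4.36 to 49.0 CPM. Nusap1, a microtubule-bundling protein, was at 17.4 and 41.3 CPM against 0 to 24.6 CPM. In the cytokinesis group, Kif20a, a motor of the central spindle, did not follow the pair. Kif20a levels were 29.7, 25.8, 3.61 and 1.93 CPM in WT vehicle, 15.4, 0.78, 1.13, 0 and 3.57 CPM in WT LPS, 18.1, 29.1, 32.8, 29.8 and 25.1 CPM in APP vehicle and 48.1, 0, 0, 54.8 and 23.6 CPM in APP LPS libraries. Its highest levels were in APP LPS replicates 4 and 1, 3 libraries were at 0, and the pair ranked 8 and 9. Prc1, which bundles the central spindle, was at 24.7 and 30.3 CPM in the pair and 0 to 28.9 CPM elsewhere. Kif23, a centralspindlin motor, was at 10.3 and 27.1 CPM against 0 to 7.68 CPM, while Ect2 and Racgap1, which direct the contractile ring, reached 17.9 and 18.3 CPM in APP LPS replicate 5.

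In WT the division genes summed to 689 ± 108 (SD, n = 5) CPM after LPS and 775 ± 94.6 (SD, n = 4) CPM with vehicle. WT LPS replicates 1 and 2, at 529 and 637 CPM, were below every vehicle library, the lowest of which was at 711 CPM, and the other 3 were within the vehicle range. The G2/M members summed to 275 to 411 CPM after LPS and 387 to 542 CPM with vehicle, so these ranges overlapped. In WT, edgeR's quasi-likelihood test with Benjamini-Hochberg adjustment over 14113 genes called 0 of 45 members (0% of all tested genes). An unadjusted p under 0.05 was reached by 0 members, against 3.66% of tested genes. The test also did not call Il1b, an inflammatory gene picked after its values were seen. Its WT group means were 39.3 CPM with vehicle and 312 CPM after LPS. A count of 0 calls thus does not show that the members were unchanged. DESeq2 called 0 members (0.631% of tested genes), with 0 below an unadjusted 0.05 (3.54%). limma voom, with consecutive file numbers as a random effect, called 0 (0.0213%) with 1 unadjusted (6.84%). edgeR with those library pairs as a block called 0 (0.149%), with a smallest unadjusted member p of 0.0357, for Kif20a. Fitted log2 changes were above 0 for 19 of 45 members with a median of -0.11, against 49.3% and -0.01 over all tested genes, and the median was 0.01 without WT LPS replicate 1 alone. Kif20a had the smallest p, with a log2 change of -1.87 ± 1.34 (SE) and an unadjusted edgeR p of 0.178 (adjusted p = 1). Its change was -3.46 without WT LPS replicate 1 alone and -1.31 without WT vehicle replicate 1 alone. Kif11 was the only member whose WT groups did not overlap, lower after LPS, against 0.581% of tested genes; its log2 change was -2.27 ± 1.76 (SE) with an adjusted edgeR p of 1. Without file numbers 57 to 60, 15 of 45 members were above 0 with a median of -0.17 (48.5% of tested genes were above 0), and 0 were called (0%). Kif11 and Racgap1 were then the members whose WT groups did not overlap, both lower after LPS (2.59% of tested genes), and 0 were higher (3.03%; 0.723% with all libraries).

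In APP, LPS against vehicle likewise called 0 of 45 members in edgeR (0% of tested genes), with 0 at an unadjusted p under 0.05 against 4.81%. DESeq2 called 0 (0.539%) with 0 unadjusted (5.19%), and limma voom 0 (0.0638%) with 3 unadjusted (10.5%). edgeR with the library pair block called 0 (0.588%), and its smallest unadjusted member p-values were 0.0212 for Kif11 and 0.0445 for Cdk1. The fitted change was above 0 for 26 members with a median of 0.09, against 46.9% of tested genes. Cenpf had the smallest edgeR p, with a log2 change of 0.84 ± 0.55 (SE), an unadjusted p of 0.141 and an adjusted p of 1.00. Its change was 0.47 without APP LPS replicate 4 alone and 1.27 without APP vehicle replicate 5 alone. No member had APP groups that did not overlap (0.255% of tested genes higher and 0.333% lower). Without file numbers 57 to 60 the count above 0 was 19 (46.1% of tested genes) and the median -0.10, 0 were called (0.0284%), and only Kif11 did not overlap, lower after LPS (1.93% of tested genes, and 1.25% higher). The median was -0.47 without APP LPS replicate 5 alone and 0.58 without APP vehicle replicate 5 alone, so its sign turned without APP LPS replicate 5.

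Libraries with consecutive file numbers form 9 vehicle and LPS pairs, and the labels do not say whether such a pair shares an animal. The member sum after LPS was 1.19, 0.861, 0.882, 1.00 and 1.15 times that of vehicle in APP replicates 1 to 5. In WT it was 0.896, 0.867, 0.993 and 1.02 times. The ratios thus lay on both sides of 1.00 in both genotypes. Kif11 was lower after LPS in 8 of 9 pairs and was the only member lower in at least 8, against 4.29% of tested genes, and 0 members were higher in at least 8, against 3.65%. Averaged over genotypes, edgeR called 0 members for LPS (0.0213% of tested genes) and 0 had an unadjusted p under 0.05 (6.15%), with 23 members above 0 (47.9% of tested genes) and a median of 0.01, which was -0.37 without APP LPS replicate 5 alone and 0.24 without APP vehicle replicate 5 alone. DESeq2 called 0 (1.26%) with 0 unadjusted (6.65%), and limma voom 0 (0.482%) with 3 unadjusted (12.1%). edgeR with the library pair block called 0 (1.5%), and its smallest unadjusted member p-values were 0.0136 for Kif11 and 0.0299 for Kif20a. Without file numbers 57 to 60 edgeR called 0 (0.22%), with 16 members above 0 (46.6%) and a median of -0.17. Kif11 had the smallest p of the averaged LPS comparison, with a log2 change of -1.35 ± 1.2 (SE) and an unadjusted edgeR p of 0.271. Its edgeR log2 change was -0.90 without APP vehicle replicate 5 alone, -4.68 without APP LPS replicate 5 alone, -4.25 without file numbers 57 to 60 (adjusted p = 0.388) and -3.58 with the library pair block (adjusted p = 0.289), and it passed the threshold in none of these.

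APP against WT showed more members with higher fitted values, and none passed the test. With vehicle, edgeR called 0 of 45 members (0% of tested genes) and 0 had an unadjusted p under 0.05, against 2.85%. DESeq2 called 0 (0.453%) with 0 unadjusted (2.83%), and limma voom 0 (0%) with 1 unadjusted (3.06%). The fitted change was above 0 for 33 members with a median of 0.20, against 51.3% of tested genes. Mcm2 had the smallest p, with a log2 change of -1.71 ± 1.18 (SE) and an adjusted edgeR p of 1. After LPS, edgeR called 0 members (0% of tested genes) and 0 unadjusted against 3.42%. DESeq2 called 0 (0.489%) with 1 unadjusted (3.23%), and limma voom 0 (0%) with 1 unadjusted (3.85%). The change was above 0 for 39 of 45 members with a median of 0.49, against 49.6% of tested genes, and it was 0.87 over the G2/M members and 0.26 over the G1/S members. Smc4 had the smallest p, with a log2 change of 0.49 ± 0.25 (SE), an unadjusted edgeR p of 0.0571 and an adjusted p of 1.

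The direction of the genotype comparison rested on the APP replicate 5 pair. Without file numbers 57 to 60, 16 of 45 members were above 0 with vehicle (median -0.38; 51% of tested genes above 0) and 21 after LPS (median -0.04; 49.5%), and 0 were called in either (0% and 0.0071%). Without file numbers 59 and 60 alone the counts were 14 (median -0.24) and 21 (median -0.11). Averaged over treatments, 38 members were above 0 with all libraries (median 0.36; 50.8% of tested genes), 13 without file numbers 57 to 60 (median -0.20; 50.6% of tested genes) and 11 without 59 and 60 (median -0.22). edgeR called 0 members in this average (0% of tested genes) and 0 had an unadjusted p under 0.05 (3.44%). DESeq2 called 0 (0.758%) with 0 unadjusted (3.81%), and limma voom 0 (0%) with 0 unadjusted (2.47%). Top2a had the smallest p, with a log2 change of 0.93 ± 0.50 (SE) and an unadjusted edgeR p of 0.0773 (adjusted p = 1.00), and the change was 0.34 without APP LPS replicate 5 alone and -0.02 without file numbers 57 to 60. Smc4 kept its direction after LPS, at 0.38 ± 0.23 (SE) without these libraries (edgeR, adjusted p = 1) and 0.31 without APP LPS replicate 5 alone. With all 19 libraries no member was separated between genotypes without overlap (with vehicle 0.475% of tested genes were higher and 0.368% lower, after LPS 0.163% and 0.333%). In the 15 libraries, Mcm2 and Mcm7 were lower in every APP vehicle than in every WT vehicle library, against 1.79% of tested genes. None was higher with vehicle (1.85%), or higher (0.73%) or lower (1.35%) after LPS. Mcm2 and Mcm7 had log2 changes of -1.95 ± 1.54 (SE) and -0.42 ± 0.52 (SE) that did not pass edgeR's test (adjusted p = 1 for both).

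**Figure D3:**
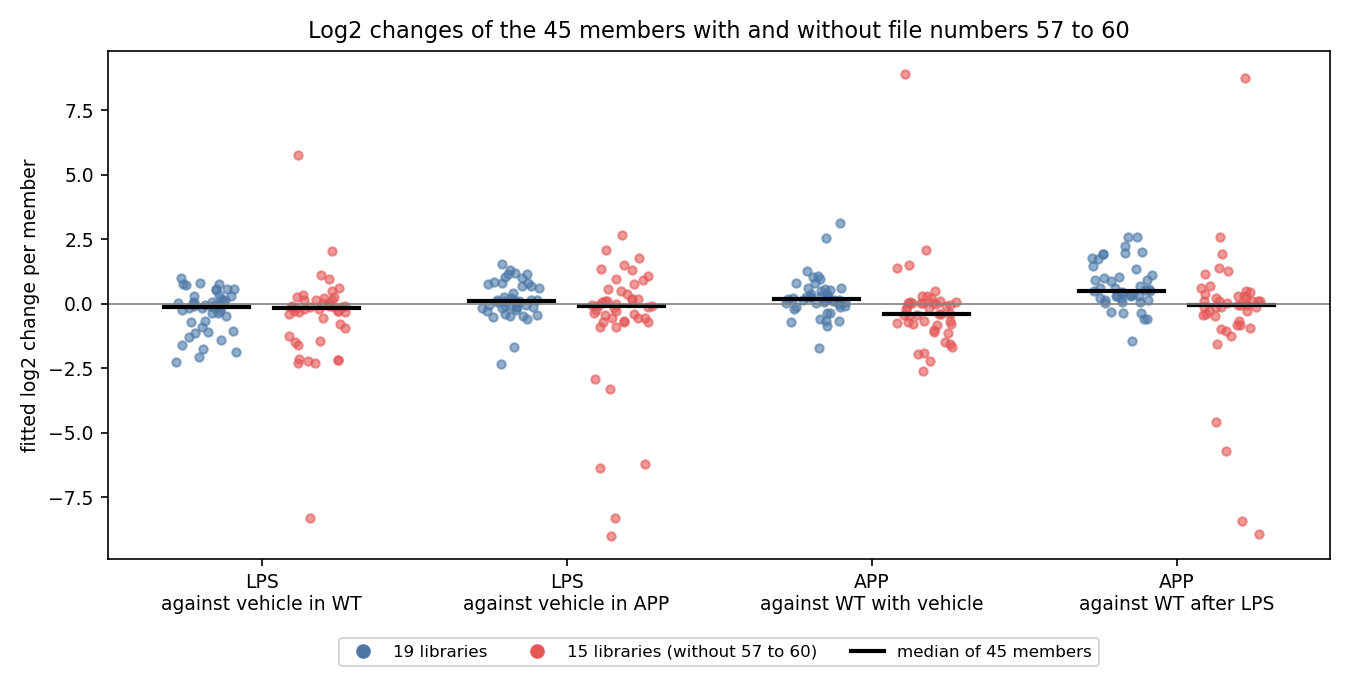
Fitted log2 change (y axis) of each of the 45 members in 4 comparisons (x axis), with all 19 libraries (blue) and with the 15 libraries without file numbers 57 to 60 (red); black lines are medians. For APP against WT after LPS the median goes from 0.49 to -0.04 and for APP against WT with vehicle from 0.20 to -0.38, and the red points spread more widely.

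The genotype by LPS interaction, which asks whether the LPS response differed between APP and WT, also called 0 of 45 members in edgeR (0% of tested genes), with 0 at an unadjusted p under 0.05 against 2.73%. DESeq2 called 0 (0.701%) with 0 unadjusted (2.99%), and limma voom 0 (0%) with 2 unadjusted (6.41%). edgeR with the library pair block called 0 (0%), with a smallest unadjusted member p of 0.0665, for Mcm3. Mcm2 had the smallest p, with an interaction of 2.69 ± 1.63 (SE) on the log2 scale and an unadjusted edgeR p of 0.113 (adjusted p = 1.00). Interaction values were above 0 for 30 members with a median of 0.24, and for 24 with a median of 0.08 without file numbers 57 to 60, against 47% of tested genes in both. The median was -0.34 without APP LPS replicate 5 alone and 0.81 without APP vehicle replicate 5 alone, so its sign turned on 1 library. Without those libraries 0 were called (0%).

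The members' correlations across libraries were higher with the pair than without it. Over the 990 pairs of members, the median Spearman rho across the 19 libraries was 0.32 and 90.3% of pairs were above 0, against 0.01 and 50.9% over all pairs of tested genes. Across the 17 libraries without file numbers 59 and 60 it was 0.12 with 67.5% above 0, and across the 15 without 57 to 60 it was 0.12 with 65.9%, against 0.01 with 50.8% and 0.01 with 50.6% over tested genes. All values share the same libraries and their depth, so these figures describe the set and carry no test.

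Other genes of the pathway showed where the pair differed. Of 28 further replication genes the sum was 559 and 534 CPM in the pair and 199 to 360 CPM elsewhere. Of these, 12 (42.9%) had their highest level in the pair, against 11% of all tested genes. The 2 of highest mean level did not separate it. Rfc3 (a clamp loader subunit) was at 83.3 and 78.4 CPM against 32.7 to 95.2 CPM, and Gins2 (a helicase partner) at 37.0 and 39.3 CPM against 7.18 to 60.9 CPM. Of 44 measured further mitosis genes the sum was 846 and 921 CPM against 413 to 563 CPM, and 24 (54.5%) were highest in the pair, against 11% of all tested genes. Of these, the checkpoint gene Bub3 was at 150 and 162 CPM against 98.9 to 161 CPM. Pttg1, which encodes securin, was at 70.9 and 80.7 CPM against 45 to 82.6 CPM. The 20 genes of transcriptional control summed to 374 and 386 CPM against 208 to 337 CPM. The retinoblastoma gene Rb1, of this list, was not higher in the pair, at 34.8 and 23.8 CPM. It was at 24.7 and 23.0 CPM in file numbers 57 and 58 and 34.6 to 104 CPM in the other 15. The 7 D-type cyclins and partners, which carry growth signals into G1, summed to 2384 and 2396 CPM, inside the range of 1270 to 3883 CPM elsewhere, with the cyclin D1 gene Ccnd1 at 683 and 666 CPM against 578 to 1744 CPM and the cyclin D2 gene Ccnd2 at 1507 and 1496 CPM against 534 to 1990 CPM. The 16 cell-cycle inhibitors summed to 2104 and 1851 CPM against 1863 to 2238 CPM, and single inhibitors differed. The p21 gene Cdkn1a was at 557 and 476 CPM in the pair. It was at 577 and 552 CPM in file numbers 57 and 58 and 646 to 896 CPM in the other 15. The antiproliferative gene Btg1 was at 605 and 541 CPM in the pair. It was at 635 and 617 CPM in file numbers 57 and 58 and 211 to 472 CPM in the other 15. Lower Cdkn1a and higher Btg1 were thus shared with file numbers 57 and 58, whose member sums were not raised. The p27 gene Cdkn1b was at 65.8 and 34 CPM in the pair against 18.1 to 56.3 CPM elsewhere. M-CSF signalling genes summed to 735 and 876 CPM, inside the range of 409 to 1186 CPM. edgeR called 0 genes of these lists in all 7 comparisons, with 0 to 2 genes of a list at an unadjusted p under 0.05. Over all tested genes edgeR called 0% to 0.0213%, with 2.73% to 6.15% unadjusted. limma voom called 0 of these genes (0% to 0.482% of tested genes), with at most 7 of a list unadjusted, the 44 mitosis genes in the interaction (6.41% of tested genes). DESeq2 called 1 (0.539% of tested genes in that comparison), the DNA polymerase delta gene Pold1, for LPS in APP (adjusted p = 0.01; 0.956 with edgeR): it was at 0 in all 5 APP LPS libraries and at 0 to 7.42 CPM with vehicle. edgeR with the library pair block called 1 (1.5% of tested genes), the M-CSF gene Csf1, for LPS averaged over genotypes, with a log2 change of 0.55 ± 0.13 (SE) and an adjusted p of 0.0308 (adjusted p = 1 without the block).

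Markers of cell types the cultures could hold moved with the pair in some lists. The sum of the microglia and macrophage markers (19 of 20 measured) was lowest there, with Csf1r, the M-CSF receptor, at 68.7 and 52.3 CPM against 75.4 to 343 CPM, and the complement gene C1qc at 181 and 90 CPM against 139 to 1195 CPM. Fibroblast and pericyte markers (20 of 21 measured) summed to 43439 and 41230 CPM, inside the range of 26999 to 80963 CPM of the other 17. Of the 20, 9 (45%) were highest in the pair, against 11% of all tested genes. Astrocyte markers (10 of 10) summed to 200 and 186 CPM, 2.21-fold and 2.06-fold the median of the other 17 (range 64.3 to 375 CPM), and only the replicate 1 libraries of both APP groups were higher. Of these markers Aqp4 was at 4.87 and 1.43 CPM and Gfap at 0 in both, as it was in file numbers 57 and 58. Oligodendrocyte lineage markers (9 of 10) summed to 206 and 176 CPM, 2.09-fold and 1.78-fold the median of the others (range 51.0 to 273 CPM). Of these, Pdgfra, also in the fibroblast and pericyte list, was at 72.9 and 45.1 CPM against 8.00 to 91.1 CPM. Olig2 was at 0 and 0.598 CPM against 0 to 7.41 CPM. Neuron markers (8 of 9) summed to 109 and 109 CPM against 57.3 to 290 CPM, with Rbfox3 at 0. Endothelial markers (12 of 13) summed to 576 and 501 CPM against 300 to 853 CPM. Monocyte and neutrophil markers (6 of 8) summed to 23.7 and 73.3 CPM against 33.7 to 252 CPM, and lymphocyte markers (5 of 8) to 0.701 and 2.67 CPM against 0.0418 to 8.49 CPM. The part of cell composition in the higher division transcripts of the pair was not tested.

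**Figure D4:**
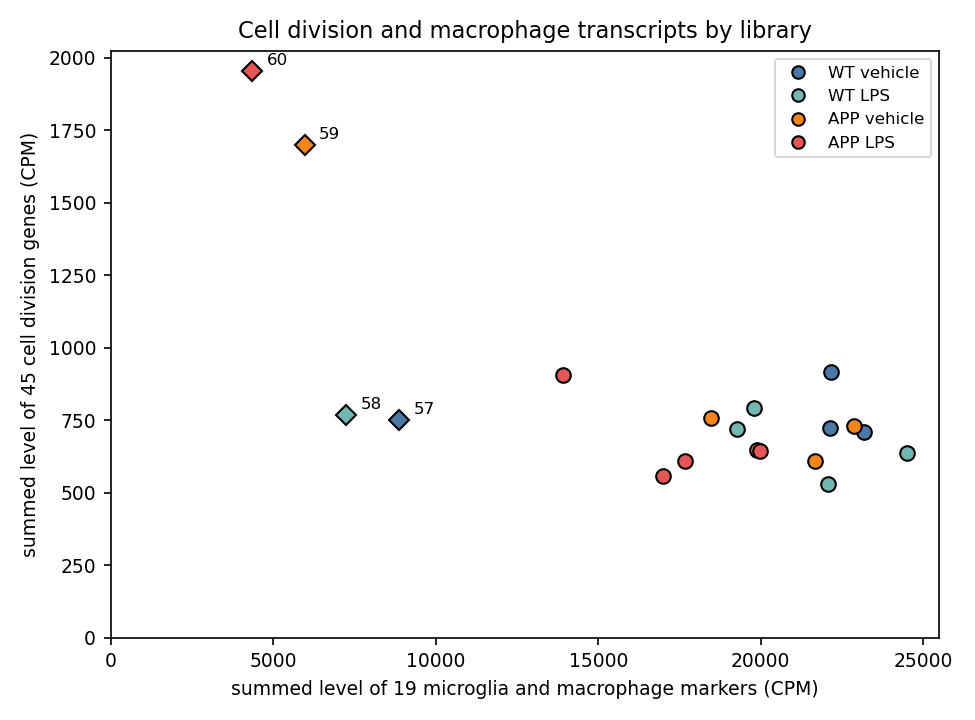
Summed level of the 45 cell division genes (y axis, CPM) against the summed level of 19 microglia and macrophage markers (x axis, CPM) in each library, coloured by group; diamonds are file numbers 57 to 60. All 4 diamonds lie at 8869 CPM or less on the x axis, but on the y axis 59 and 60 stand at 1698 and 1953 CPM and 57 and 58 at 751 and 767 CPM.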

How the data were processed

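RNA of 19 libraries (4 WT vehicle, 5 in each other group, by sample title) was sequenced from the 3′ end with the QuantSeq kit. Per the submitters' processing notes, FastQC, Trimmomatic, kallisto and DESeq2 were used. The values the authors deposited are estimated counts per gene, whole numbers already, so rounding changed 0 of them. Collapse of molecular identifiers, genome build, annotation and software versions: none is given in the sources used here. The label of WT LPS replicate 1 says library 5, its file says 6. Genes with a total under 10 were absent from the tables, and 0 entries were spike-ins. No 2 libraries of a group were copies (smallest chi-square per degree of freedom 85.9 over 36 comparisons).

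From the counts, CPM were computed with TMM factors, and log2 changes with edgeR 4.0.16 (quasi-likelihood F test, 1 coefficient per group, filterByExpr, common dispersion 1.05) in R 4.3.3. P-values were adjusted by Benjamini-Hochberg over 14113 genes and called at 0.05; 2828 genes were left out. Alternatives used DESeq2 1.42.0, limma 3.58.1, other normalization and filters, blocks, and left-out libraries. The scripts were tested on simulated data. In counts simulated for LPS averaged over genotypes, edgeR called 37 of 100 genes changed 2-fold and 90 of 100 changed 4-fold. The changed genes were taken above a floor on mean CPM that many members did not reach.

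Members with values are the 2 of highest mean CPM in each of 10 roles and the member of smallest p in each of 7 comparisons; other members are given by range. The members, the gene lists and the rule were chosen with earlier results of these data known. In the APP groups, libraries with the same replicate number deviated together in 5 of 5 pairs (r from 0.13 to 0.352). In WT, libraries with the same replicate number shared only a number (r from -0.091 to 0.0659). The main edgeR fit paired no libraries. The library pair block used consecutive file numbers, which in APP join the same libraries as the replicate numbers.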

Additional observations from a re-analysis of the deposited data

Results flagged for a closer look

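Single libraries stood far from the rest of their group, by a gap over range above Dixon's 95% limit, in 21 of 104 groups examined (23 genes and 3 sums in 4 groups each). Chance would give about 1 in 20 in independent groups. These groups are not independent, since they share libraries and genes, and APP vehicle replicate 5 and APP LPS replicate 5, already singled out by their values, gave 6 and 7 of the 21, so the count is a description and is not set against that share. In APP vehicle replicate 5, Mcm7 was high at 159 CPM, Mcm4 at 63.9 CPM and Cdk1 at 77.1 CPM. In APP LPS replicate 5, Ccna2 was high at 48.3 CPM, Cenpe at 33.8 CPM, Tpx2 at 29.8 CPM, Kif11 at 19.8 CPM and Top2a at 162 CPM. The sum of all members stood apart at 1698 CPM in APP vehicle replicate 5 and 1953 CPM in APP LPS replicate 5. The G1/S sum stood apart at 657 CPM in APP vehicle replicate 5. The G2/M sum did so at 1041 CPM in APP vehicle replicate 5 and 1330 CPM in APP LPS replicate 5.

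The other 8 were in WT libraries. In WT vehicle replicate 3, Ccne2 was high at 16.7 CPM, Mcm4 low at 7.04 CPM and Stmn1 low at 18.8 CPM. In WT vehicle replicate 2, Birc5 was high at 22.3 CPM, Prc1 at 27.3 CPM and Cdc20 at 4.67 CPM, the other 3 libraries of that group being at 0 for Cdc20. Ube2c was high at 11.4 CPM in WT LPS replicate 3 and Kif20a at 15.4 CPM in WT LPS replicate 1.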

How the results depend on the processing

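No member passed the threshold in any of the 7 comparisons under the alternatives run, with 0 members called in each. Over all genes, counts of calls moved more. For LPS in WT the count was 0, and it was 89 with DESeq2's test, 3 with limma voom, 21 with library pair as a block and 32 with that block without file numbers 57 to 60. For LPS in APP it was 0, and 76 with DESeq2, 9 with limma voom, 83 with the library pair block, 4 without file numbers 57 to 60, 2 without 59 and 60, and 173 with the pair block without 57 to 60. For APP against WT with vehicle it was 0 and 64 with DESeq2. For APP against WT after LPS it was 0, 69 with DESeq2 and 1 without file numbers 57 to 60. For the interaction it was 0, 99 with DESeq2 and 1 with the pair block without 57 to 60. For LPS averaged over genotypes it was 3, and 178 with DESeq2, 68 with limma voom, 211 with the library pair block, 31 without file numbers 57 to 60, 15 without 59 and 60, and 282 with the pair block without 57 to 60. For APP averaged over treatments it was 0 and 107 with DESeq2. With the replicate number as a block, pairing same-numbered libraries, the counts were 2 for LPS in APP, 1 for the interaction and 39 for LPS averaged, and 10 of 18 libraries correlated best with their own number; for library pairs 17 of 18 did. The cause of these differences between tools was not tested. Leaving out 1 library at a time gave 0 to 2 calls for LPS in APP, 0 to 1 for APP against WT after LPS and 0 to 11 for LPS averaged. The Top2a change of APP averaged over treatments reversed from 0.93 to -0.02 without file numbers 57 to 60 and to -0.11 without 59 and 60. The fits without 59 and 60 and the pair block without 57 to 60 were chosen after seeing the data. Leaving out 1 library moved the members' median log2 change between -0.25 and 0.01 for LPS in WT, -0.47 and 0.58 for LPS in APP, -0.24 and 0.31 for APP against WT with vehicle, -0.11 and 0.64 after LPS, -0.34 and 0.81 for the interaction, -0.37 and 0.24 for LPS averaged over genotypes, and 0.04 and 0.49 for APP averaged over treatments. Members near 0 counts in some libraries limit the precision of their changes.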
